A study of Caenorhabditis elegans with 12 samples.

Results

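The genes followed here encode the Sm proteins, the Sm-like (LSm) proteins and other RNA-binding proteins and splicing factors of *Caenorhabditis elegans*. They were taken by name, as every entry of the deposited gene table whose public name was *snr*, *rsp*, *prp*, *uaf*, *sap*, *lsm*, *gut*, *rnp* or *hrp* followed by a number. The rule found 41 genes among 45627 entries and used no measured value. Since it reads names and not functions, it also took a few RNA-binding proteins that act outside the spliceosome, and these are marked as such where they appear.

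RNA was sequenced from pools of gonad arms that were dissected from adult hermaphrodites kept at 25°C, after their egg laying had been followed from the young adult stage. The 12 samples came from 3 lineages, each with a sample of 4 groups. The replicate number in the labels was read as the lineage, which the labels do not state, so each reading by lineage below rests on that number. All samples of lineage 3 have library names that begin with SSKK007. Both F4 samples of lineage 1, and no others, have names that begin with SSAK006. For these samples, lineage and library prefix cannot be told apart. P0 animals were heterozygous, with *set-2*(*bn129*) on one copy of chromosome III and the balancer *qC1* on the other. F2 fertile, F4 fertile and F4 sterile animals were homozygous for *set-2*(*bn129*), descended from the P0 animals of their lineage, and were called sterile where the uterus held no visible embryos. The protein lost, SET-2, methylates histone H3 at K4 as part of the worm SET1/COMPASS complex. All 4 groups carried the same allele in the same strain, PFR541, and no group without the allele is analysed here. The comparisons with P0 therefore join the loss of the wild-type copy, the loss of the balancer and the number of generations, which cannot be told apart. As a check of the labels, *set-2* itself stood at 186 to 197 CPM (counts scaled to the size of the library) in P0, 141 to 157 CPM in F2 fertile, 123 to 129.8 CPM in F4 fertile and 132 to 135 CPM in F4 sterile gonads, and so was below all P0 samples in each of the homozygous ones.

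Introns are removed by the spliceosome, which is assembled on each transcript from small nuclear ribonucleoproteins (snRNPs). The U1, U2, U4 and U5 particles are each built around a ring of Sm proteins, while U6 carries a related ring of LSm proteins. U1 binds the start of the intron, U2AF and U2 define its end and branch point, and the U4/U6.U5 particle then brings in the catalytic parts. SR proteins bind exons and help to recruit these factors, and hnRNP proteins often act against them. In *C. elegans*, Sm rings are also part of the particles that donate spliced leaders to many messages, and Sm proteins have been linked to germ granules in the early embryo. The gonad makes the RNA that is stored in oocytes, so its splicing factors serve both the germ cells and the embryo.

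Of the 41 genes, 39 passed edgeR's expression filter. The 2 others, *rnp-4* and *rsp-4*, were at or near the floor of 3 counts per library, which corresponded to between 0.283 and 0.895 CPM and covers counting error only. *rnp-4*, whose human counterpart is the exon junction protein Y14, had 1 count in the 12 samples together. This says little about its expression, because 96.0% of its span lies within *snfc-5* on the same strand, to which 8037 counts were assigned. *rsp-4*, the SC35-type SR protein, had 16 counts in all and lies wholly (100%) within *ndx-6* on the same strand, which had 681. The values of 2 further genes are uncertain for the same reason, as 88.8% of *rnp-7* overlaps a gene model on its own strand (K04G7.11) and 96.9% of *lsm-4* overlaps *ada-2* on the opposite strand, and the strand setting of the counting is not given in the sources used here. Together the 41 genes held between 0.640% and 0.699% of the counts on genes, which totalled between 3456068 and 10335794 per sample.

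Levels of different genes were compared only per length, as CPM per kb of exon, for the 40 genes with a length in the reference annotation (*sap-1* had none). In P0 gonads *snr-2*, which encodes SmB, was first at 354 ± 17.2 CPM per kb (SD, n = 3), and the hnRNP A1-type gene *hrp-1* followed at 323 ± 15.5 CPM per kb. Then came the SR gene *rsp-3* at 276 ± 14.2 CPM per kb and 4 more Sm genes, *snr-5*, *snr-4*, *snr-3* and *snr-1*, at 271 to 235.4 CPM per kb. *snr-5* had an SD of 58.8 CPM per kb, so its place among these neighbours was not settled. *prp-8*, the gene of the large U5 protein at the core of the spliceosome, stood at 196 ± 5.33 CPM per kb. The LSm genes were lower than every Sm gene, from 118 CPM per kb for *lsm-5* to 32.8 CPM per kb for *lsm-4*. *rnp-7*, which encodes the U1-70K protein, had only 9.04 ± 1.20 CPM per kb, with the overlap named above. The order moved with the length used: per kb of coding sequence *rsp-3* came first, and *prp-8* moved to place 17 from place 8.

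**Figure D1:**
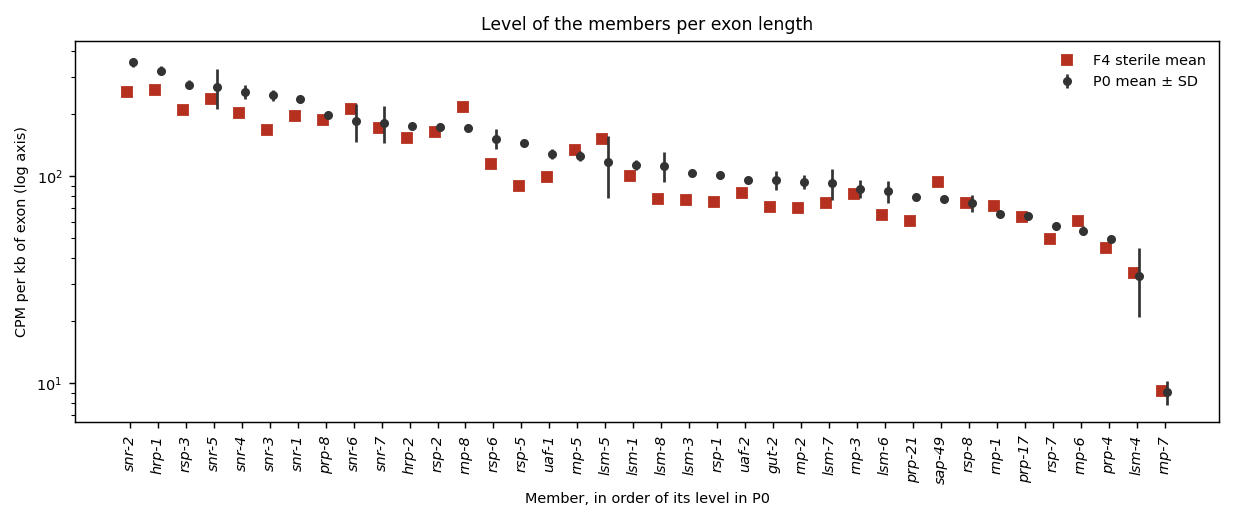
Mean level of the 38 members with an exon length that passed the expression filter, in CPM per kb of exon on a log axis, with F4 sterile gonads as squares and P0 gonads as circles (bars give the SD of the 3 P0 samples). The Sm genes, *hrp-1* and *rsp-3* are at the upper end in P0, where *snr-2* has 354 CPM per kb, and *rnp-7* is lowest at 9.04 CPM per kb.

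The comparisons were made with edgeR's quasi-likelihood test over all 8746 genes that passed the filter, and a gene is said to have risen or fallen where its adjusted p was under 0.05. In F4 sterile gonads against P0, 14 of the 39 members tested fell and 2 rose. These are 35.9% and 5.13% of the members, where 16.8% of all genes tested fell and 26.4% rose. The log2 fold change was below 0 for 29 of the 39 members (74.4%) and for 45.5% of all genes tested, with a median of -0.21 for the members and 0.05 for all genes. None of the falls reached 2-fold: they ran between -0.68 for *rsp-5* and -0.27 for *sap-1* on the log2 scale. Each of the 14 genes was lower in F4 sterile than in P0 gonads in 3 of 3 lineages, and its values in the 2 groups did not overlap. The test had picked these genes on the same values, so this adds no separate support. It also held for the uncalled *snr-1*, *rsp-3*, *rsp-7*, *hrp-2*, *uaf-2*, *prp-4* and *prp-8*, and its share over all genes tested was not counted. The members that fell were spread over the roles, with 3 of 7 Sm genes, 3 of 8 LSm genes, 3 of 6 genes of U1 and U2, 1 of 2 U2AF genes, 3 of 7 SR genes and 1 of 6 genes of the hnRNP and other RNP group. None of the 3 remaining *prp* genes fell.

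**Figure D2:**
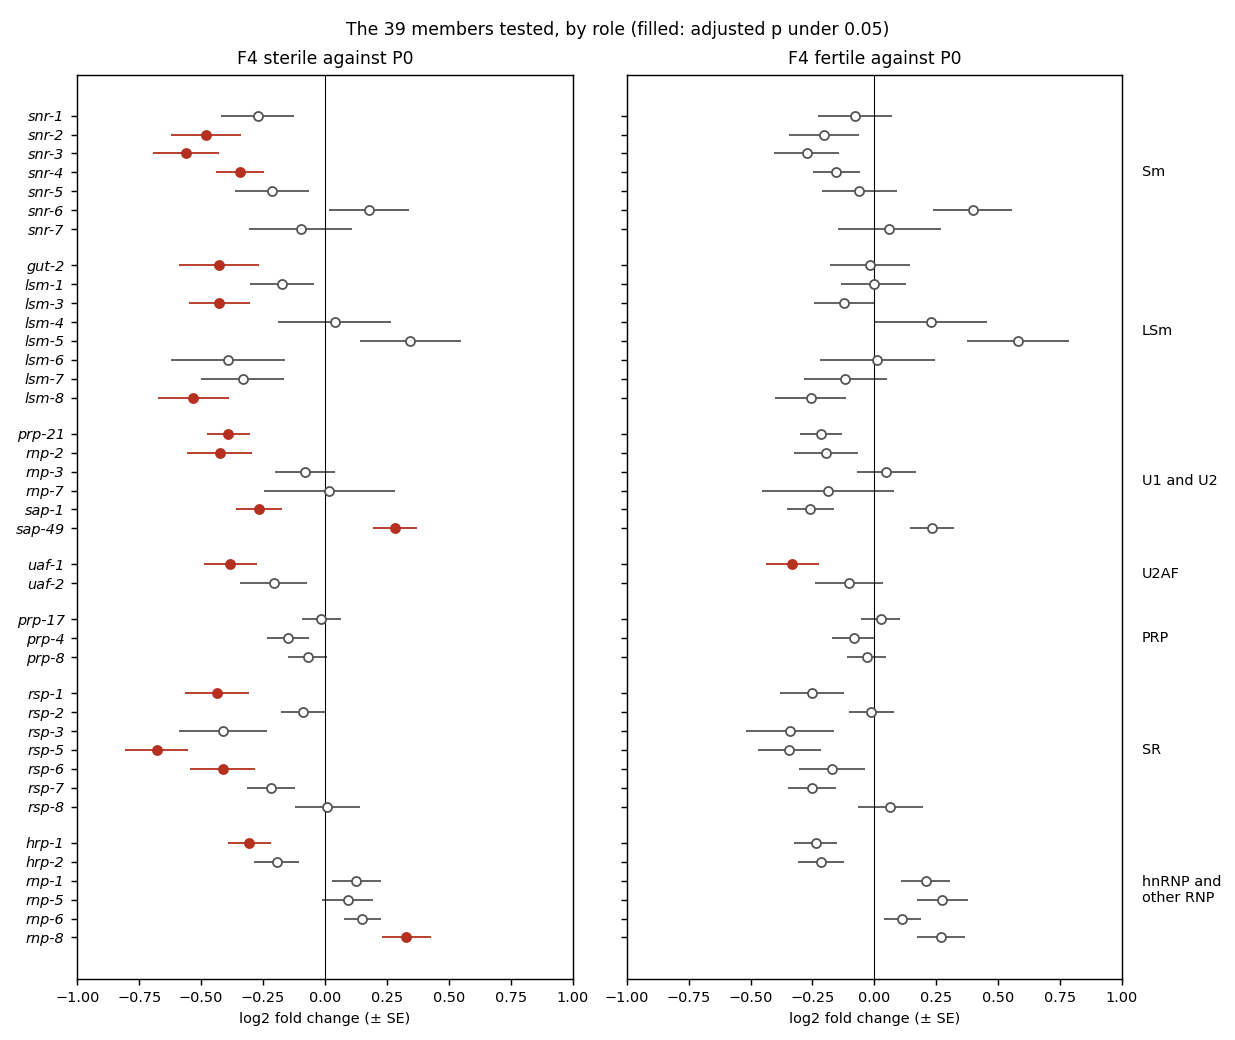
Log2 fold change with its standard error for the 39 members tested, by role, in F4 sterile against P0 gonads (left panel) and F4 fertile against P0 gonads (right panel), with filled symbols for an adjusted p under 0.05. In F4 sterile gonads 14 members are filled to the left of 0 and 2 to the right, and in F4 fertile gonads only *uaf-1* is filled.

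Sm proteins form a ring of 7 around the RNA of most spliceosomal particles, and the worm genes *snr-1* to *snr-7* encode them. In F4 sterile gonads *snr-2*, *snr-3* and *snr-4* fell, and no Sm gene rose (0 also at an unadjusted p under 0.05, and 0 with DESeq2). The summed level of the 7 genes was 787, 817 and 812 CPM in the F4 sterile samples of lineages 1, 2 and 3, against 1051, 943 and 996 CPM in the P0 samples. Every F4 sterile sample was thus below every P0 sample. *snr-3* encodes SmD1 and lies at 6488727 to 6489735 on the minus strand of chromosome II (WS220). It had 144, 163 and 154 CPM in P0, 134, 148 and 174 CPM in F2 fertile, 114, 111 and 158 CPM in F4 fertile and 95.8, 108 and 108 CPM in F4 sterile gonads, with the lineages in the order 1, 2, 3 here and throughout. Lineages 1 and 2 were already low in F4 fertile gonads, whereas lineage 3 was not. The log2 fold change of F4 sterile against P0 was -0.56 (SE 0.13, edgeR adjusted p = 0.0042), the largest fall of an Sm gene.

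*snr-2*, the gene of SmB (chromosome I, 13339384 to 13340216), had 244, 251 and 268 CPM in P0, 204, 231 and 301 CPM in F2 fertile, 198, 201 and 265 CPM in F4 fertile and 171, 176 and 201 CPM in F4 sterile gonads. Lineage 3 was the highest in every group, and the F2 and F4 fertile values overlapped those of P0. F4 sterile gonads fell below P0 with a log2 fold change of -0.48 (SE 0.14, edgeR adjusted p = 0.014). *snr-4*, which encodes SmD2 (chromosome V, 11978499 to 11979951), had 156, 133 and 144 CPM in P0, 121, 157 and 136 CPM in F2 fertile, 129.8, 132 and 128 CPM in F4 fertile and 116, 109.5 and 115 CPM in F4 sterile gonads. Its F4 values were close together within each group, and its log2 fold change in F4 sterile against P0 was -0.34 (SE 0.10, edgeR adjusted p = 0.011). The 4 other Sm genes did not pass the test. *snr-1* (SmD3) had a log2 fold change of -0.27 (SE 0.15), *snr-5* (SmF) of -0.21 (SE 0.15), *snr-7* (SmG) of -0.10 (SE 0.21) and *snr-6* (SmE) of 0.18 (SE 0.16). These 4 genes differed in the spread of their P0 values. The 3 P0 samples of *snr-5*, *snr-6* and *snr-7* varied with an SD of 15.5 to 20.5 CPM around means of 75.9 to 94.1 CPM. For *snr-1*, which was not called either, the SD was 3.68 CPM around 188 CPM.

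LSm proteins form 2 related rings. LSM2 to LSM8 bind U6 in the nucleus, while a ring with LSM1 in place of LSM8 promotes decapping and decay of messages in the cytoplasm. The 8 genes cover both, since *gut-2* encodes the worm LSM2. In F4 sterile gonads *lsm-8*, *lsm-3* and *gut-2* fell and no LSm gene rose (0 at an unadjusted p under 0.05 and 0 with DESeq2). *lsm-8*, the gene particular to the nuclear ring (chromosome IV, 6326513 to 6329461), had 75.1, 63.8 and 53.5 CPM in P0, 48.3, 63.4 and 51.2 CPM in F2 fertile, 57.4, 50.7 and 53.6 CPM in F4 fertile and 49.8, 43.2 and 40.1 CPM in F4 sterile gonads. The P0 samples were spread widely, yet the highest F4 sterile value was below the lowest of them, and the log2 fold change was -0.53 (SE 0.14, edgeR adjusted p = 0.0093). *lsm-1*, the gene particular to the cytoplasmic ring, had 56.2, 60.2 and 63.1 CPM in P0, 54.2, 57.4 and 59.5 CPM in F2 fertile, 64.7, 59.4 and 54.6 CPM in F4 fertile and 62.1, 42.5 and 54.5 CPM in F4 sterile gonads. Here the groups overlapped, with a log2 fold change of -0.17 (SE 0.13, edgeR adjusted p = 0.30), and whether *lsm-8* and *lsm-1* changed differently was not tested.

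*lsm-3* (chromosome IV, 13387179 to 13389575) had 44.2, 44.4 and 45.3 CPM in P0, 43.5, 46.5 and 43.4 CPM in F2 fertile, 43.6, 42.8 and 36.4 CPM in F4 fertile and 28.1, 36.4 and 34.9 CPM in F4 sterile gonads. It was nearly level through P0 and F2 and lower in all F4 sterile samples, with a log2 fold change of -0.43 (SE 0.12, edgeR adjusted p = 0.014). Of its span, 18.5% overlaps a gene on the opposite strand and 6.6% overlaps *mdt-9* on its own strand. *gut-2* (chromosome V, 13497690 to 13498806) had 50.8, 42.3 and 42.9 CPM in P0, 39.3, 54.4 and 54.6 CPM in F2 fertile, 35.9, 51.4 and 47.5 CPM in F4 fertile and 35.4, 34.4 and 31.4 CPM in F4 sterile gonads. Lineage 1 was low in all 3 homozygous groups, while lineages 2 and 3 were low only as F4 steriles. The log2 fold change of F4 sterile against P0 was -0.43 (SE 0.16, edgeR adjusted p = 0.047), and the call was lost without the P0 sample of lineage 1 (adjusted p = 0.082), the F2 fertile sample of lineage 2 (0.054) or the F4 sterile samples of lineages 1 (0.051) or 3 (0.12). *lsm-4*, *lsm-5*, *lsm-6* and *lsm-7* were not called and ranged between -0.39 and 0.34 on the log2 scale, with *lsm-5* as the highest of all 39 members in F2 fertile, F4 fertile and F4 sterile gonads against P0 (0.48, 0.58 and 0.34), where its P0 samples ran from 22.4 to 44.0 CPM.

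The U1 and U2 particles mark the ends of the intron, and 6 of the genes encode their proteins. Of these *prp-21*, *rnp-2* and *sap-1* fell in F4 sterile gonads and *sap-49* rose. *prp-21* encodes the SF3a1 subunit of U2 (chromosome II, 484866 to 490404). It had 171, 161 and 168 CPM in P0, 136, 122 and 146 CPM in F2 fertile, 147, 148 and 136 CPM in F4 fertile and 129, 117 and 136 CPM in F4 sterile gonads. All 9 homozygous samples were below all 3 P0 samples. Set against P0, the log2 fold change was -0.31 in F2 fertile (SE 0.09, edgeR adjusted p = 0.040), -0.22 in F4 fertile (SE 0.09, edgeR adjusted p = 0.093) and, at its largest, -0.39 in F4 sterile gonads (SE 0.09, edgeR adjusted p = 0.0027). The call in F2 was lost in 7 of the 12 fits that left out a sample, namely each of the P0 samples (adjusted p = 0.064 to 0.088), the F2 samples of lineages 1 (0.090) and 2 (0.21) or the F4 fertile samples of lineages 1 (0.063) and 2 (0.063), and the call in F4 sterile gonads was kept in all 12.

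*rnp-2* encodes a protein of the type that binds the RNA of U1 and U2, and lies 96 bases before its paralog *rnp-3* on the same strand of chromosome IV (4172095 to 4173981, and 4174078 to 4176259). *rnp-2* had 65.9, 75.1 and 76.3 CPM in P0, 65.8, 60.9 and 72.6 CPM in F2 fertile, 56.5, 68.6 and 63.7 CPM in F4 fertile and 56.4, 44.0 and 61.7 CPM in F4 sterile gonads. *rnp-3* had 73.2, 59.9 and 68.8 CPM in P0, 81.8, 81.4 and 81.3 CPM in F2 fertile, 73.8, 63.0 and 73.6 CPM in F4 fertile and 73.1, 64.6 and 53.3 CPM in F4 sterile gonads. The first gene thus had lower values in all F4 sterile than in all P0 samples, while those of the second overlapped. For F4 sterile against P0, the log2 fold change was -0.42 for *rnp-2* (SE 0.13, edgeR adjusted p = 0.019) and -0.08 for *rnp-3* (SE 0.12, edgeR adjusted p = 0.62), and the difference between the genes was not tested. Only uniquely mapped reads were kept by the authors, so stretches that the paralogs share would not be counted for either.

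*sap-1* (H20J04.8, chromosome II, 4324362 to 4326156) encodes a core protein of the U2 particle. It had 94.7, 103 and 88.0 CPM in P0, 96.2, 83.2 and 80.7 CPM in F2 fertile, 79.9, 80.7 and 77.4 CPM in F4 fertile and 79.7, 73.6 and 83.8 CPM in F4 sterile gonads. Both F4 groups were below P0 in 3 of 3 lineages, and the log2 fold change in F4 sterile gonads was -0.27 (SE 0.09, edgeR adjusted p = 0.034). *sap-49*, which encodes the SF3b4 subunit of U2 (chromosome II, 8034293 to 8035717), went the other way, with 101, 99.6 and 103 CPM in P0, 99.4, 122 and 125 CPM in F2 fertile, 118, 122 and 116 CPM in F4 fertile and 117, 124 and 128 CPM in F4 sterile gonads. Every F4 sample was above every P0 sample, and in F2 only lineage 1 was not. The log2 fold change in F4 sterile against P0 was 0.28 (SE 0.09, edgeR adjusted p = 0.021). That call was lost in 7 of the 12 fits that left out a sample: without each of the P0 samples (adjusted p = 0.17 to 0.23), the F2 (0.10) or F4 fertile (0.14) sample of lineage 3, or the F4 sterile samples of lineages 2 (0.16) or 3 (0.070). Each of these fits also repeated the expression filter and the scaling of the libraries. Without the F2 or the F4 fertile sample of lineage 3, the median log2 fold change over all genes tested was -0.01, against 0.05 with all samples. Such losses therefore include shifts shared by all genes. *rnp-7* did not pass the test (0.02, SE 0.26).

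U2AF recognises the end of the intron as a pair of subunits, *uaf-1* encoding the large and *uaf-2* the small subunit. *uaf-1* (chromosome III, 1062782 to 1076545) had 234, 218 and 208 CPM in P0, 173, 186 and 211 CPM in F2 fertile, 159.6, 178 and 187 CPM in F4 fertile and 145, 174 and 188 CPM in F4 sterile gonads. In each homozygous group lineage 1 was lowest and lineage 3 highest, and both F4 groups were wholly below P0. *uaf-1* was the only member that fell in F4 fertile gonads, with a log2 fold change of -0.33 (SE 0.11, edgeR adjusted p = 0.043), and it fell in F4 sterile gonads with one of -0.38 (SE 0.11, edgeR adjusted p = 0.011). The call in F4 fertile gonads was lost in 6 of the 12 fits that left out a sample, that is without each of the P0 samples (adjusted p = 0.050 to 0.085), the F2 sample of lineage 2 (0.059) or the F4 fertile samples of lineages 1 (0.16) or 2 (0.10), whereas the call in F4 sterile gonads was kept in all 12. *uaf-2* had 103, 98.7 and 99.3 CPM in P0, 72.9, 104 and 119.1 CPM in F2 fertile, 99.8, 86.6 and 94.6 CPM in F4 fertile and 84.3, 87.8 and 88.4 CPM in F4 sterile gonads. Its F4 sterile values were all below P0, but with a log2 fold change of -0.21 (SE 0.14, edgeR adjusted p = 0.24) it was not called.

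Of the remaining *prp* genes, which act once the larger particles have joined, none was called in F4 sterile against P0 (0 at an unadjusted p under 0.05 and 0 with DESeq2). *prp-8* was the member with the most counts. It had 1410.0, 1487 and 1463 CPM in P0, 1720.0, 1513 and 1546 CPM in F2 fertile, 1390.0, 1435 and 1441 CPM in F4 fertile and 1376, 1406 and 1370.0 CPM in F4 sterile gonads. The F4 sterile values lay just below those of P0, with a log2 fold change of -0.07 (SE 0.08, edgeR adjusted p = 0.51). *prp-4*, a protein of the U4/U6 particle, and *prp-17*, a factor of the second catalytic step, had log2 fold changes of -0.15 (SE 0.09) and -0.02 (SE 0.08).

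The SR proteins have RNA recognition motifs and a tail rich in arginine and serine, and bring early factors to the exon. Of the 7 SR genes tested, *rsp-5*, *rsp-1* and *rsp-6* fell in F4 sterile gonads and none rose (0 at an unadjusted p under 0.05 and 0 with DESeq2). *rsp-5* fell most of all members. It had 156, 148 and 154 CPM in P0, 117, 136 and 163 CPM in F2 fertile, 108, 114 and 141 CPM in F4 fertile and 84.5, 101 and 101 CPM in F4 sterile gonads. In each lineage the F4 fertile sample lay between P0 and F4 sterile. The log2 fold change was -0.34 in F4 fertile (SE 0.13, edgeR adjusted p = 0.071) and reached -0.68 in F4 sterile gonads (SE 0.13, edgeR adjusted p = 0.00097), which is 0.625 of the P0 level. *rsp-5* (chromosome II, 6490126 to 6491305, plus strand) and *snr-3* are neighbours that are transcribed away from each other with 390 bases between them, and they had the largest falls among the 39 members. Of the span of *rsp-5*, 19.7% overlaps T28D9.11 on the opposite strand, a gene model with 83 counts in the 12 samples against 9218 for *rsp-5*.

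*rsp-1* (chromosome II, 11453914 to 11455743) had 250.3, 234 and 229 CPM in P0, 230.4, 218 and 238 CPM in F2 fertile, 156, 221 and 223 CPM in F4 fertile and 148, 190.0 and 189 CPM in F4 sterile gonads, with lineage 1 the lowest in both F4 groups. Its log2 fold change in F4 sterile against P0 was -0.44 (SE 0.13, edgeR adjusted p = 0.015). *rsp-2* starts 1022 bases away on the other strand and is also an SR gene. It had 192, 178 and 189 CPM in P0, 159, 172 and 202 CPM in F2 fertile, 180.2, 190.3 and 184 CPM in F4 fertile and 184, 163 and 179.5 CPM in F4 sterile gonads. Unlike its neighbour it was not called, with overlapping groups and a log2 fold change of -0.09 (SE 0.09, edgeR adjusted p = 0.47), and the difference between them was not tested. *rsp-6*, an SR protein with a single RNA recognition motif (chromosome IV, 7789833 to 7791223), had 207, 190.2 and 165 CPM in P0, 154, 196 and 212 CPM in F2 fertile, 147, 173 and 181 CPM in F4 fertile and 122, 148 and 153 CPM in F4 sterile gonads. It fell with a log2 fold change of -0.41 in F4 sterile against P0 (SE 0.13, edgeR adjusted p = 0.022), a call that was lost without the F4 sterile sample of lineage 1 (adjusted p = 0.066).

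*rsp-3*, the worm counterpart of the human splicing factor ASF/SF2, had 432, 475 and 439.7 CPM in P0, 366, 395 and 468 CPM in F2 fertile, 266, 381 and 416 CPM in F4 fertile and 252, 344 and 417 CPM in F4 sterile gonads. Both F4 samples of lineage 1 were far below the others, and with this spread its log2 fold change of -0.41 in F4 sterile against P0 (SE 0.18) was not called (edgeR adjusted p = 0.078). These 2 samples are the only libraries whose names begin with SSAK006 (a prefix of the library name in the labels), and their summed intestine markers were 924 CPM in F4 fertile and 797 CPM in F4 sterile gonads, where the other 10 samples had 2447 to 4346 CPM. Most of that sum came from the yolk protein genes *vit-2* and *vit-6*, which had means of 1159 and 1559 CPM of the 2764 CPM in P0. The part of the library prefix or of the intestine markers in the values of *rsp-3* was not tested. *rsp-7* had a log2 fold change of -0.22 (SE 0.10, edgeR adjusted p = 0.087), and *rsp-8*, a Tra2-type protein, of 0.01 (SE 0.13).

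The last group joins the hnRNP proteins and the other RNP genes, and its members moved both ways. *hrp-1*, the hnRNP A1-type gene (chromosome IV, 3336921 to 3338864), had 557, 506 and 531 CPM in P0, 457, 492 and 548 CPM in F2 fertile, 421, 451 and 482 CPM in F4 fertile and 408, 442 and 439 CPM in F4 sterile gonads. It fell in F4 sterile gonads with a log2 fold change of -0.31 (SE 0.09, edgeR adjusted p = 0.012), after one of -0.24 in F4 fertile gonads that was not called (SE 0.09, edgeR adjusted p = 0.070). *rnp-8* rose. It acts outside the spliceosome, as a partner of the cytoplasmic poly(A) polymerase GLD-2 in the germ line (chromosome I, 364522 to 368511). It had 407, 418 and 438 CPM in P0, 390.3, 424 and 484 CPM in F2 fertile, 537, 511 and 473 CPM in F4 fertile and 533, 477 and 577 CPM in F4 sterile gonads. All F4 samples were above all P0 samples, and the log2 fold change in F4 sterile against P0 was 0.33 (SE 0.10, edgeR adjusted p = 0.015). The call was lost in 6 of the 12 fits that left out a sample: without each of the P0 samples (adjusted p = 0.11 to 0.19), the F2 (0.056) or F4 fertile (0.089) sample of lineage 3 or the F4 sterile sample of lineage 3 (0.069). Of the genes not called, *hrp-2* had a log2 fold change of -0.19 (SE 0.09), while *rnp-1*, *rnp-5* and *rnp-6* were between 0.09 and 0.15.

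**Figure D3:**
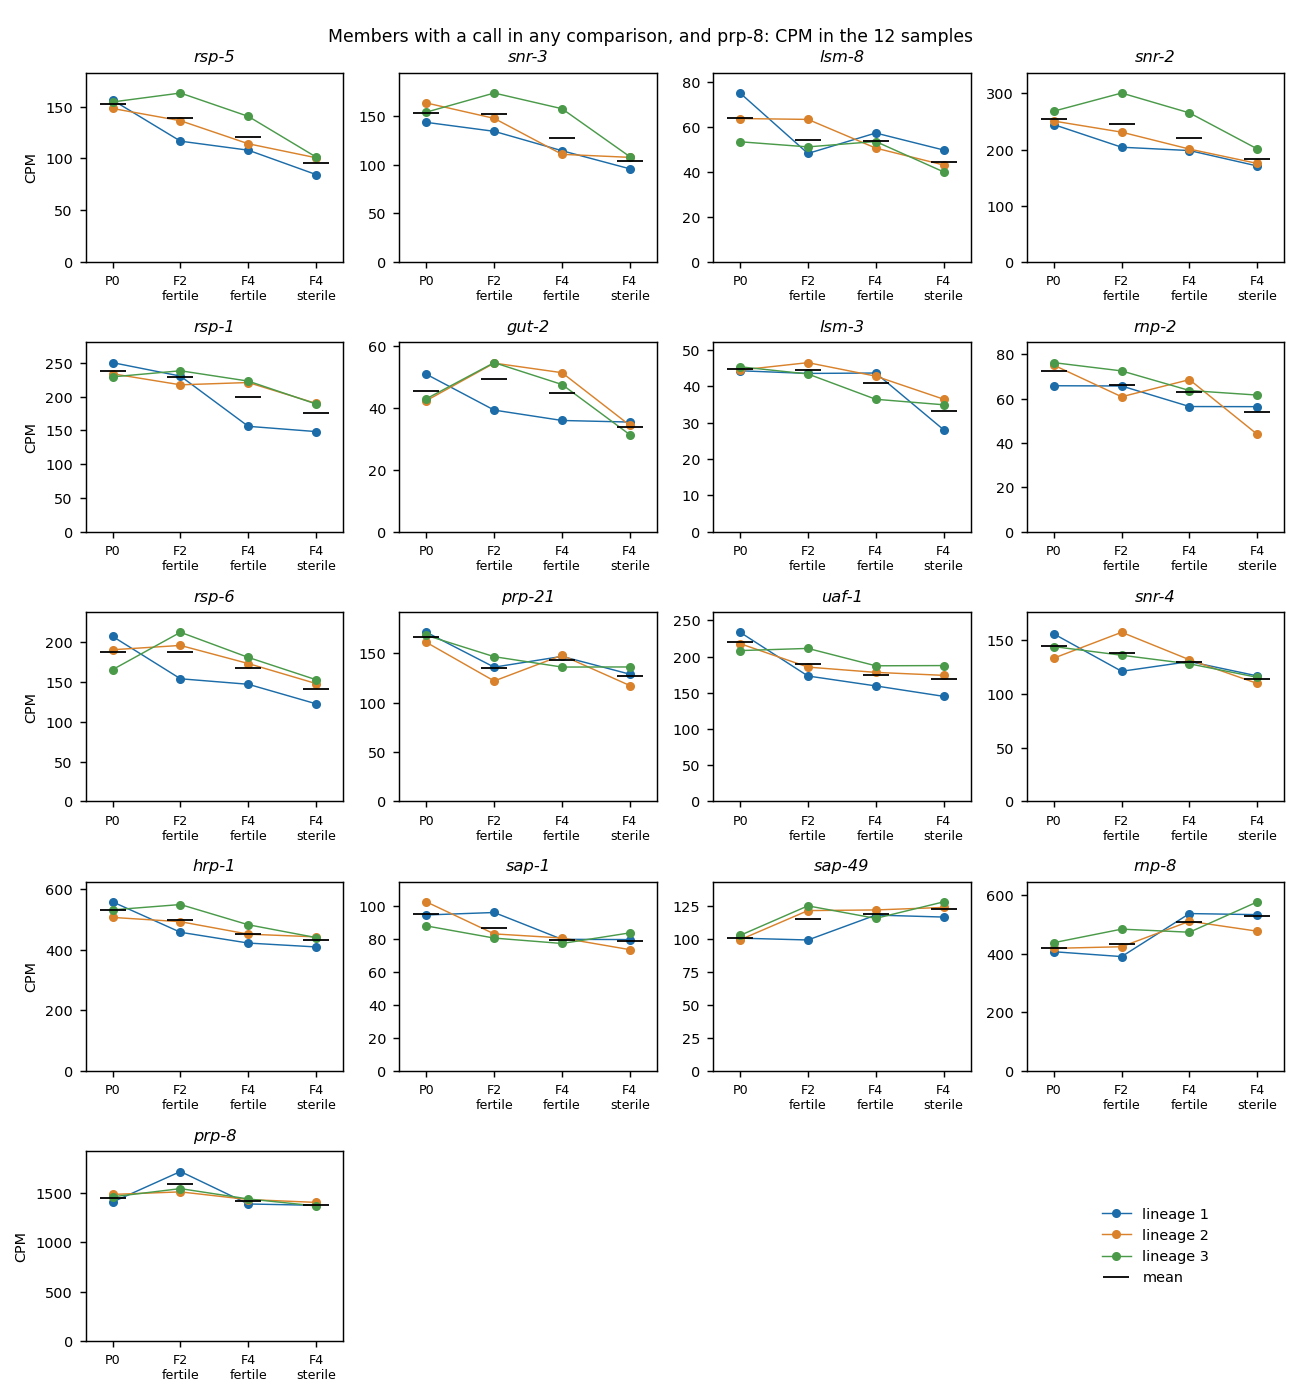
CPM in each of the 12 samples for the 16 members called in any comparison and for *prp-8*, in order of their fold change, with the 4 groups from P0 to F4 sterile gonads on the x axis, each axis starting at 0, a colour for each lineage and a black dash for the group mean. *rsp-5*, first, has 84.5 to 101 CPM in F4 sterile and 148 to 156 CPM in P0 gonads, and *rnp-8* ends above its P0 values.

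Over the generations, few members were called before the F4 sterile stage. In F2 fertile against P0, *prp-21* was the only member that fell (2.56% of 39, where 1.33% of all genes tested fell), and none rose, where 7.6% of all genes did. Before adjustment, p was under 0.05 for 1 lower and 3 higher members, and DESeq2 called 1 lower and 0 higher. The F2 fertile sample of lineage 1 stood apart from the other F2 samples for several members, with 126 CPM of *snr-1* (189.8 and 214 CPM in the others), 57.5 CPM of *snr-7* (102 and 93.5 CPM) and 72.9 CPM of *uaf-2* (104 and 119.1 CPM). Without it, *rnp-5* and *sap-49* were called higher in F2 fertile gonads. In F4 fertile against P0, *uaf-1* alone fell (2.56%, against 7.42% of all genes tested) and none rose (13.7% of all genes did). The unadjusted p was under 0.05 for 7 lower and 5 higher members, and DESeq2 called 3 lower, adding *hrp-1* and *sap-1*, and 0 higher. Counts of falling members in F4 fertile gonads moved when single samples were left out, with 6 without the F2 sample of lineage 3, 6 without the F4 fertile sample of lineage 3, 7 without the F4 sterile sample of lineage 2, 3 where the F2 sample of lineage 1 was missing, and 0 without the P0 samples of lineages 1 or 2, the F2 sample of lineage 2 or the F4 fertile samples of lineages 1 or 2. The F2 and F4 sterile samples are not part of this comparison, but each fit repeated the filter and the scaling. Without the F2 sample of lineage 3 or the F4 sterile sample of lineage 2, the median over all genes tested was -0.002 and -0.009, against 0.04 with all samples. The median of the members was -0.13 in both fits, against -0.08, so the counts also moved with shifts shared by all genes.

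No member was called between F4 fertile and F2 fertile gonads, where 0.0114% of all genes tested rose and 0.0% fell (with p under 0.05 before adjustment for 1 higher and 0 lower members, and 0 either way with DESeq2). None was called either between F4 sterile and F4 fertile gonads, which are of the same generation and genotype, where 2.85% of all genes rose and 0.434% fell. In that comparison 33 of the 39 members (84.6%) had a log2 fold change below 0, against 47.5% of all genes tested, with a median of -0.16 for the members and 0.02 for all genes. All 7 Sm genes, between -0.29 and -0.15, and all 8 LSm genes, between -0.41 and -0.17, were on that side. At an unadjusted p under 0.05, 4 members were lower (*rsp-5*, *gut-2*, *lsm-3* and *snr-3*) and 0 higher, and DESeq2 called 0 either way. The calls in F4 sterile against P0 are thus not shown to be particular to sterile gonads.

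**Figure D4:**
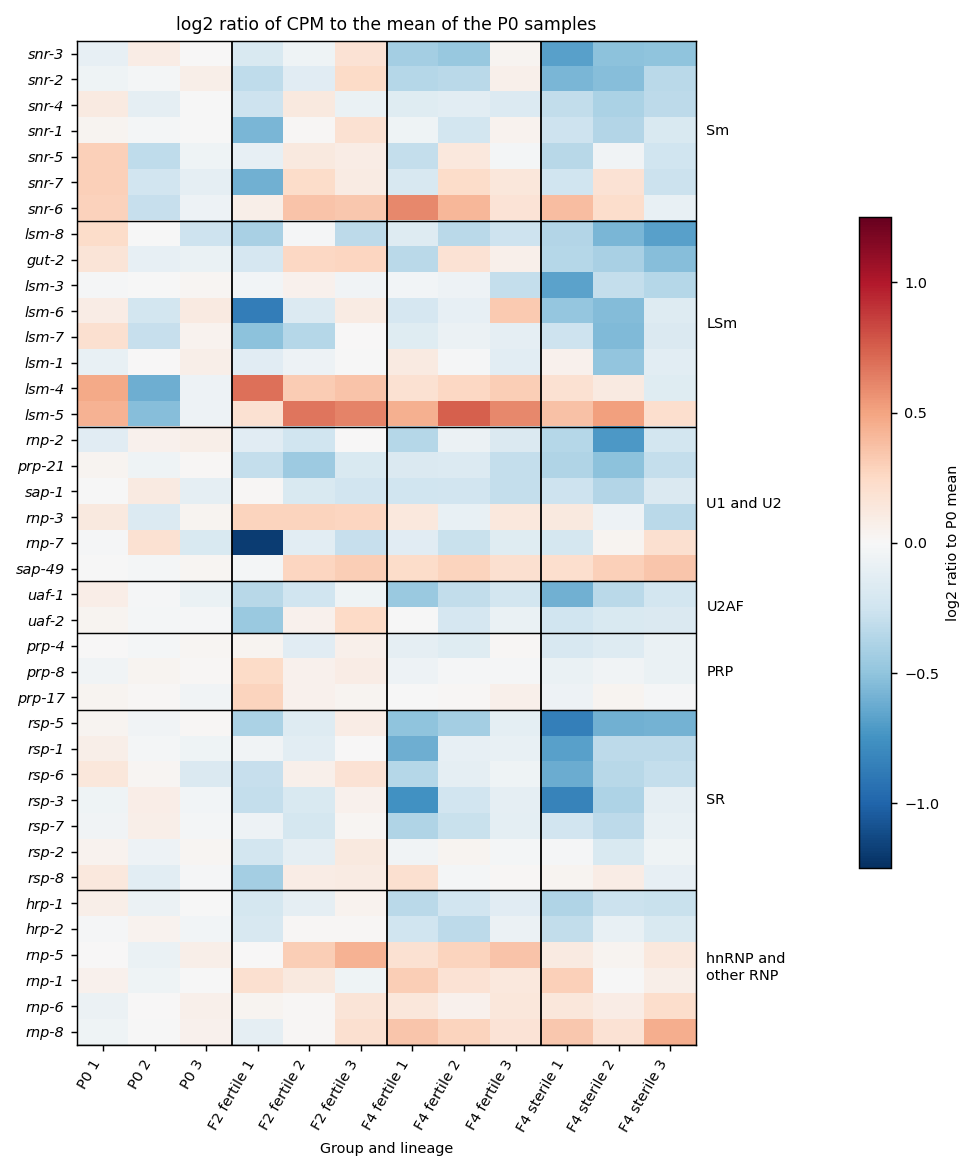
Log2 ratio of the CPM of each sample to the mean of the P0 samples, for the 39 members tested (lines, by role) in the 12 samples (columns, P0 to F4 sterile and lineages 1 to 3 within each), blue below and red above the P0 mean. The falling Sm, LSm and SR members are bluest in the F4 sterile columns, and the F2 fertile sample of lineage 1 stands apart for *lsm-6*, *snr-1*, *snr-7* and *rnp-7*.

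The summed level of all 41 genes was 7069, 6888 and 6930 CPM in P0, 6575, 6906 and 7430 CPM in F2 fertile, 6319, 6600 and 6869 CPM in F4 fertile and 5996, 6198 and 6413 CPM in F4 sterile gonads. All F4 sterile values were below those of P0, while those of F2 fertile gonads spread to either side. This separation rests on the TMM scaling, whose factors were 0.924 to 0.973 in P0 and 1.02 to 1.09 in F4 sterile libraries. As unscaled shares of the counts on genes, the 2 groups overlapped. The 41 genes held 0.6513%, 0.6684% and 0.6645% in P0 and 0.6526%, 0.6404% and 0.654% in F4 sterile gonads. By role, the means of F4 sterile and P0 gonads were 1103 ± 126 against 1406 ± 34.4 CPM for the SR genes and 281 ± 11.8 against 335 ± 36 CPM for the LSm genes (SD, n = 3 each). For the hnRNP and other RNP group they were 1715 ± 56.6 against 1729 ± 22.9 CPM, since the lower *hrp-1* and the higher *rnp-8* nearly cancelled.

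Other features of these samples moved alongside. Of the 10 germ line markers, 7 fell in F4 sterile against P0 and none rose (0 at an unadjusted p under 0.05, 0 with DESeq2), with a summed level of 4527 to 5883 CPM in F4 sterile and 7472 to 8045 CPM in P0 gonads. In bulk gonads, fewer germ cells and less of a message per cell cannot be told apart. Of the neuron markers 4 of 5 tested rose (141 to 154 CPM in F4 sterile, 96.0 to 101 CPM in P0), as did 1 of 2 sperm markers (8.28 to 31.4 CPM, against 3.36 to 8.43 CPM). Somatic gonad markers had 2 higher and 1 lower of 6 (108 to 153 CPM, against 122 to 137 CPM), intestine markers 1 higher of 5 (797 to 4346 CPM, against 2447 to 3101 CPM), muscle markers none of 6 (53.7 to 217 CPM, against 73.9 to 113 CPM, with *hlh-1* at 0 counts in both groups) and hypodermis markers 2 lower of 3 (93.5 to 103 CPM, against 122 to 129 CPM). Of all genes tested, 26.4% rose and 16.8% fell. Several of these sums came mostly from a single gene. In F4 sterile gonads *snb-1* held a mean of 120 of the 149 CPM for neurons and *nhr-23* 80.15 of the 97.5 CPM for hypodermis. For somatic gonad, *sys-1* held 79.6 of the 131 CPM. Such sums follow these genes more than the other markers of the list. The part of these cell types in the values of the splicing factors was not tested. The library name prefixes were shared across groups only in part. Without both SSAK006 libraries, an alternative chosen after the data were seen that leaves 2 samples in each F4 group, all 14 members that fell were still called and *lsm-1* was added, while *rnp-8* and *sap-49* were no longer called higher.

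None of the 41 genes is on the X chromosome, which held 11.1% of the genes tested and where 73.8% of these rose in F4 sterile against P0. Against the autosomal genes alone, of which 18.8% fell and 20.5% rose, the members' 35.9% and 5.13% stood on the same sides. The 14 that fell were on chromosomes II and IV (5 each), V (2), I (1) and III (1). Chromosome III carries *qC1* in P0 only, and *uaf-1* was the only member on it that was called, of 8 tested.

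The pathway has further genes under other names, of which 40 were listed and 33 could be tested beside the members. In F4 sterile against P0, 10 of the 33 rose and 6 fell, with a median log2 fold change of -0.03. Both counts were near the shares among all genes tested, of which 26.4% rose and 16.8% fell. On the list, the 5 genes with the largest rises encode regulators of alternative splicing, and each had under 5 CPM in P0 gonads. *exc-7*, an ELAV-type protein, had 9.58 ± 3.16 CPM in F4 sterile and 1.88 ± 0.476 CPM in P0 gonads (SD, n = 3 each), a log2 fold change of 2.19 (SE 0.32, edgeR adjusted p = 0.00015). *asd-2*, a STAR-type regulator, had 9.98 ± 2.17 against 2.18 ± 0.315 CPM (2.03, SE 0.30, edgeR adjusted p = 0.00016). *fox-1*, an RBFOX-type protein, had 14.1 ± 2.95 against 3.81 ± 1.59 CPM (1.81, SE 0.29, edgeR adjusted p = 0.00030). *mec-8* had 14.6 ± 3.04 against 4.49 ± 0.881 CPM (1.62, SE 0.25, edgeR adjusted p = 0.00022), and *mbl-1*, a muscleblind-type protein, had 3.07 ± 1.36 against 0.926 ± 0.305 CPM (1.43, SE 0.43, edgeR adjusted p = 0.017). The P0 level of *mbl-1* was near the floor of 3 counts, which is 0.421 to 0.895 CPM in the P0 libraries. It had 125 counts in the 12 samples together. *fox-1* and *mbl-1* are on the X chromosome. The 5 other genes that rose, named after their values were seen, had higher levels and smaller changes: *asd-1* (105 ± 4.66 CPM in F4 sterile and 69.0 ± 6.46 CPM in P0 gonads, log2 fold change 0.60), *mag-1* (0.37), *mog-1* (223 ± 12.3 against 174 ± 8.02 CPM, 0.36), *ddx-23* (0.24) and D1081.8 (360.1 ± 10.8 against 308 ± 12.2 CPM, 0.22). Of these *mog-1*, *ddx-23* and D1081.8 encode general factors of the spliceosome.

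The 5 largest falls on that list ran between -0.36 and -0.29 on the log2 scale. *emb-4*, an intron-binding helicase, had 358 ± 6.92 CPM in F4 sterile and 459 ± 26.6 CPM in P0 gonads (-0.36, SE 0.08, edgeR adjusted p = 0.0040). The U5 helicase gene Y46G5A.4 had 1160.0 ± 169 against 1482 ± 23.7 CPM (-0.35, SE 0.12, edgeR adjusted p = 0.029), and F56D2.6, a helicase that takes the spliceosome apart, had 303 ± 25.6 against 376 ± 14.7 CPM (-0.31, SE 0.08, edgeR adjusted p = 0.0096). *tcer-1*, a transcription elongation and splicing factor, had 249.8 ± 30.8 against 315 ± 10.8 CPM (-0.33, SE 0.09, edgeR adjusted p = 0.010), and *etr-1*, a CELF-type protein, had 137 ± 14.6 against 167 ± 2.27 CPM (-0.29, SE 0.10, edgeR adjusted p = 0.026). A further 12 genes have *prp*, *prpf*, *sap* or *rnp* names only in a newer name table and so escaped the rule. Of the 11 tested, none fell (0 at an unadjusted p under 0.05, 0 with DESeq2), where 16.8% of all genes tested did. Only C07H6.4, with the newer name *sap-140*, rose, where 26.4% of all genes did. Its log2 fold change was 0.24 (edgeR adjusted p = 0.015).

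**Figure D5:**
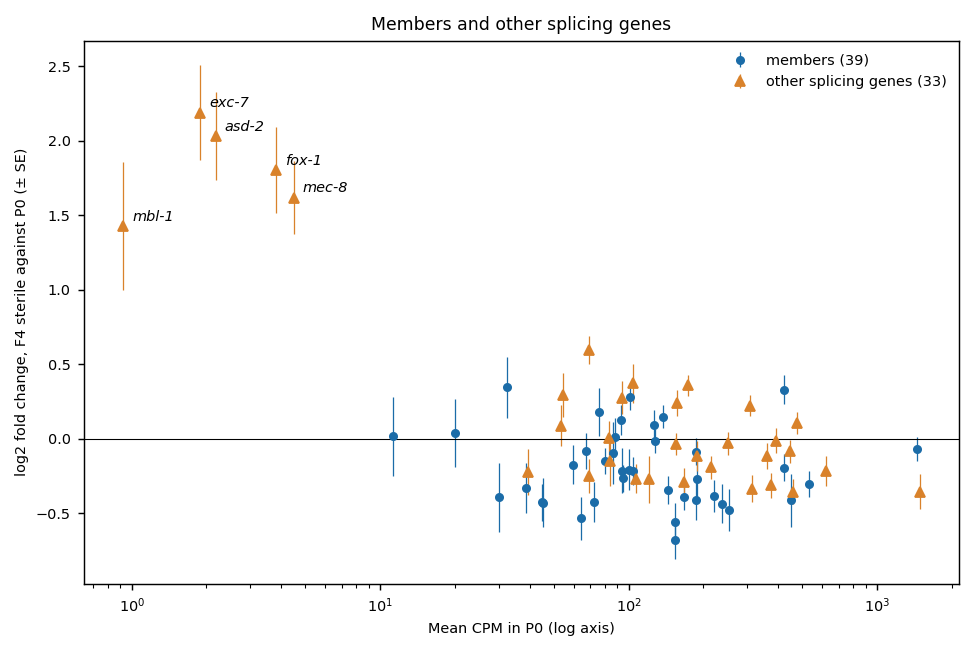
Log2 fold change of F4 sterile against P0 gonads with its standard error, by mean CPM in P0 on a log axis, for the 39 members tested (circles) and the 33 other splicing genes tested (triangles). The 5 named regulators are at the upper left, with 0.926 to 4.49 CPM in P0 and log2 fold changes of 1.43 to 2.19, while the members lie between -0.68 and 0.34.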

How the data were processed

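RNA from dissected gonads was sequenced in 12 samples (4 groups of 3 lineages, read from the replicate numbers in the labels). With TopHat2, the authors aligned reads to transcriptome WS220, of which those with a unique position were retained and ribosomal ones removed, and they deposited whole counts per gene made with HTSeq, without normalization. Versions and the strand setting of counting are not given in the sources used here. Their table of normalized values, log2 fold changes and p-values served only for gene names and coordinates.

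Reads on no gene (8.23% to 14.4%) or ambiguous ones (1.76% to 2.24%) were left out. The test was edgeR's (4.0.16, run in R 4.3.3) quasi-likelihood test after TMM scaling and the expression filter, with a prior count of 2. All 12 samples entered 1 fit by group without covariates, as lineages were independent replicates in the study's methods. P-values were adjusted by Benjamini-Hochberg over 8746 genes. CPM are counts scaled to the TMM-adjusted library size. Standard errors are approximate, being derived from the fold change and its F statistic. Exon lengths came from the WBcel235 annotation by gene ID, without coordinates. On counts simulated for F4 sterile against P0 (8746 genes), the test recovered 71% of genes changed 2-fold and 97% of those changed 4-fold, with 4.55% false among 176 calls. The simulation gave every gene the same spread and changed 200 genes, as many up as down. In the data 26.4% of genes rose and 16.8% fell. It therefore did not test the scaling under such an imbalance, spreads that differ by gene, or changes under 2-fold such as the falls of the members.

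All 41 members are accounted for. Values in every sample are given for members called in any of 5 comparisons and, in a role group without calls, for the member with the highest mean CPM. Neighbours, partners, *rsp-3*, C07H6.4 and the markers that made up most of a sum were added after their values were seen. Of the other splicing genes, at most 5 called in each direction are named. The members and lists were chosen with earlier results of these data known. Alternatives were DESeq2 1.42.0, its size factors in edgeR, no expression filter, a replicate block, the library name prefix as a covariate, only the 6 samples compared and leaving out each sample.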

Additional observations from a re-analysis of the deposited data

How the results depend on the processing

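The number of members that fell in F4 sterile against P0 stayed between 13 and 16 in all alternatives that kept the 12 samples or the 6 compared, and between 12 and 20 without single samples. The other counts are small and moved. Members falling in F2 fertile gonads became 0 without an expression filter. In F4 fertile against P0, falling members became 2 with DESeq2's size factors, 3 with DESeq2, 3 without the filter, 3 with the replicate block, 0 with the library prefix as a covariate, 7 with only the 6 samples compared and 0 without both SSAK006 libraries (chosen after the data were seen), and rising members became 1 without the filter, 1 with the replicate block, 3 with the prefix and 3 with the 6 samples. In F4 sterile against P0, rising members became 1 with DESeq2, 0 without the filter and 0 without the SSAK006 libraries. In F4 sterile against F4 fertile gonads, 1 falling member (*rsp-5*) was called without the filter and 1 with the prefix. Without single samples the ranges were 0 to 2 higher and 0 to 1 lower in F2 fertile, 0 to 2 higher and 0 to 7 lower in F4 fertile and 0 to 2 higher in F4 sterile gonads against P0. Beyond the samples named above, calls ended for *lsm-3* (adjusted p = 0.053) and *sap-1* (0.070) with the 6 samples, for *sap-1* (0.052) without the filter and for *gut-2* (0.075) with the prefix. Of the members called in F4 sterile against P0, 0 changed direction in any of 19 other fits, while 8 members that were not called did, most often *rsp-8* (in 12 fits), *rnp-7* (10) and *lsm-4* (9), then *rnp-5* (4) and *snr-6*, *rnp-1*, *rnp-3* and *prp-17* (1 each). The replicate block called 15 falling members in F4 sterile gonads; samples of the same number were correlated in their deviations from the group means with a mean r of 0.0953 over 18 pairs, of which 7 were above 0.1, and -0.0477 over the 36 others. With 3 samples a group and 3456068 to 10335794 counts, falls of the size seen here are near what the test can call, so a member not called is not shown to be level.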
